A study of Mus musculus with 6 samples.

Results

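The genes described here encode the proteins of the mitochondrial ribosome, measured on expression arrays of the proximal colon of Mthfd1 gene-trap heterozygous and wild-type mice. Members were all probe sets (groups of short probes that read 1 transcript) whose single platform gene symbol begins with Mrpl or Mrps and a number. They came to 127 of 22690 probe sets and covered 74 genes. Mrpl30 and Mrpl53 were present only on probe sets that list several genes and were left out, and Mrps10 and Mrps27 were not analysed here, so 74 of the 78 protein-coding genes of this name in the RefSeq table were covered.

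The study measured RNA of the proximal colon at 8 weeks of age in 6 mice, with 1 array per sample and 3 arrays per genotype. Wild-type mice (Mthfd1 +/+) carried no gene trap. Heterozygous mice carried 1 allele of Mthfd1 disrupted by a gene trap of the BayGenomics collection. Both genotypes had eaten the same AIN-93G control diet for 5 weeks. Strain, sex and trap site are not stated in the labels, the trap is not confined to 1 cell type, and the tissue holds epithelium, muscle and immune cells together. In such bulk tissue, fewer cells of a type and less RNA per cell cannot be told apart. The labels call the samples of a genotype biological replicates and do not say that animals were pooled.

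Mitochondrial ribosomes sit in the mitochondrial matrix and translate the few proteins that mitochondrial DNA encodes, all of them core subunits of the respiratory chain and ATP synthase. Their RNAs come from mitochondrial DNA, but all of their proteins are made from nuclear genes and imported. The large subunit joins amino acids, and the small subunit reads the mRNA. Some of the proteins have counterparts in bacteria (the bacterial type), and others are found only in mitochondria. Translation there starts with formylmethionine: Mtfmt formylates the methionyl initiator tRNA with a formyl group of 10-formyltetrahydrofolate. Mthfd1, the trapped gene, encodes the cytoplasmic enzyme that interconverts methylene-, methenyl- and formyl-tetrahydrofolate, and separate enzymes, among them Shmt2, Mthfd2 and Mthfd1l, handle these units inside mitochondria.

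Arrays resembled each other closely. Their median signals lay between 156.9 and 168.2, and Pearson correlations of log2 signal over probe sets were 0.971 to 0.981 within a genotype and 0.973 to 0.982 between genotypes. Mthfd1 signal was 949.9, 838.6 and 881.4 in wild-type and 453.1, 509.6 and 549.4 in heterozygous mice, so the groups did not overlap and the heterozygous mean was 56.6% of wild-type. Its log2 difference was -0.80 ± 0.12 (SE, n = 3 per group; limma adjusted p = 0.125). Colonocyte markers summed to 39398 to 45178 signal units in wild-type and 37338 to 47454 in heterozygous samples, so markers of the labelled tissue were present in every sample. Markers of other cells were present in both genotypes: 6 of 6 smooth muscle markers had probe sets, with sums of 36794 to 51283 and 35976 to 44979. Leukocyte markers (9 of 10) summed to 3820 to 4787 and 4621 to 6065, adipocyte markers (5 of 6) to 11405 to 18576 and 12912 to 16369, and ileal enterocyte markers (7 of 7) to 8286 to 27736 and 10154 to 23841, none of the lists being at 0. Fabp2 made the largest part of the ileal sum, and other ileal markers swung widely within a genotype. Apoa1 read 2396.9, 7711.8 and 29.5 in wild-type and 43.0, 3949.1 and 377.9 in heterozygous samples. Fabp6 read 1316.8, 5661.9 and 93.5 against 382.3, 5621.6 and 727.8.

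On 1 array the mitoribosomal genes stood apart from the tested genes as a whole. Wild-type replicate 1 had the highest signal of all 6 arrays for 55 of 74 mitoribosomal genes (74.3%), whereas it was the highest for 16.1% of all 8243 tested genes. The same array was the highest for 68.0% of 75 nuclear-encoded respiratory chain genes, so the pattern was not particular to this family. Genotype differences of the family, its classes and its named members are given with and without that array where it moves them.

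The signal of a probe set depends on its probes as well as on the RNA, so levels are given as what each probe set reported and not as an order of abundance. Of the 127 probe sets, 109 passed the filter for low signal (a mean of at least 95.8, the 40th percentile), and 18, with means of 2.6 to 90.8, did not. The nearest to the limit were 106.9 for Mrpl34 inside it and 90.8 for a second probe set of Mrpl57 outside it. Every one of the 74 genes kept at least 1 tested probe set, and each is represented below by its brightest one. Their mean signals ran from 233.0 (Mrpl1) to 2940.1 (Mrpl12), with a median of 955.7 beside 486.0 over all tested genes. The 49 genes of the large subunit had a median signal of 1023.6 and the 24 genes of the small subunit had 812.2. Subunits follow the known structure, in which Mrps18a and Mrps30 lie in the large subunit. Mrps36 is counted in neither, since its product is a component of 2-oxoglutarate dehydrogenase.

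No mitoribosomal gene passed the test between heterozygous and wild-type colon. No member reached an adjusted p of 0.05 in limma, and 0.0% of all 13576 tested probe sets did so; the smallest adjusted p among the members' probe sets was 0.686. At an unadjusted p under 0.05 there were 0 of the 74 genes, where 5.34% of all tested genes passed. The median log2 difference (heterozygous minus wild-type) was 0.04 over the 74 genes and 0.005 over all tested genes, with members between -0.32 and 0.20. It was above 0 in 51 of the 74 genes (68.9%), beside 51.5% of all tested genes. The differences were narrow: 70 of 74 (94.6%) lay within 0.2 of 0 on the log2 scale, beside 74.7% of all tested genes. The 95% confidence intervals had a median half-width of 0.31, and for all 74 genes the interval stayed within a 2-fold change in either direction.

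**Figure D1:**
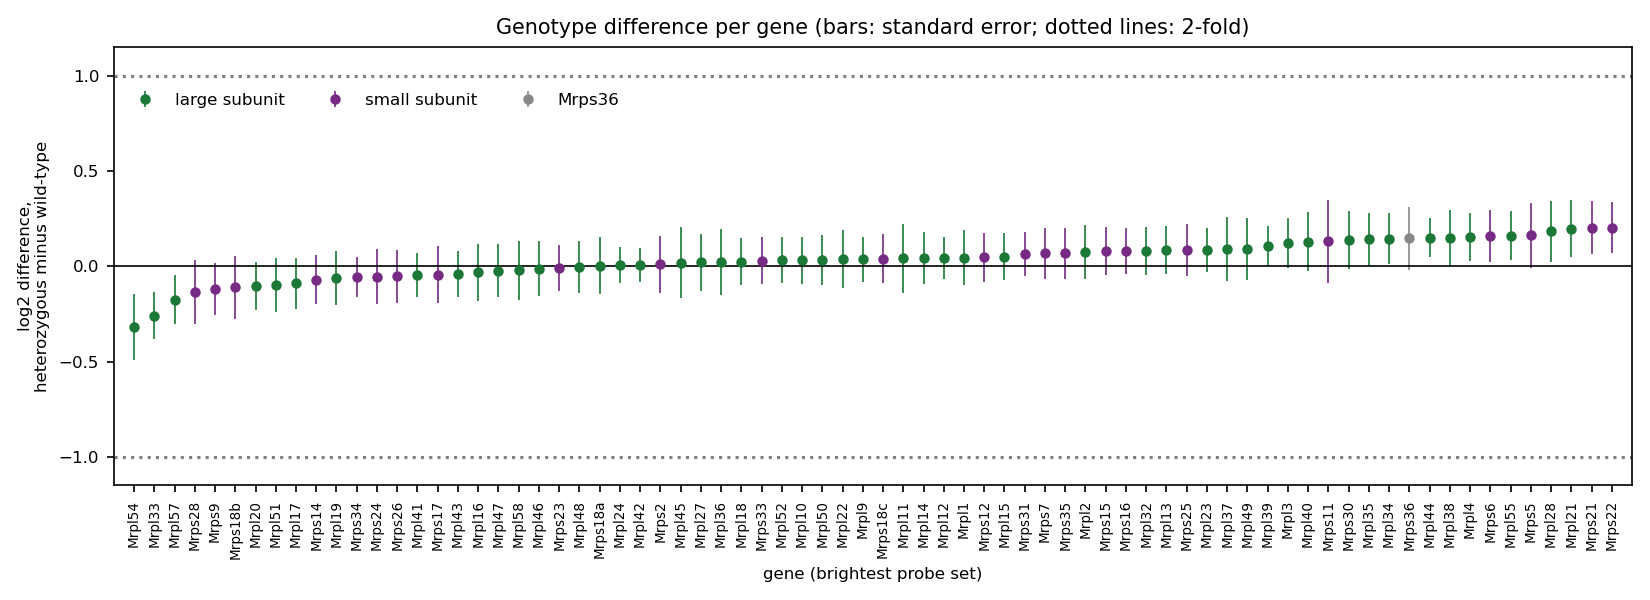
Each point is 1 of the 74 mitoribosomal genes, ordered by its log2 difference in signal (heterozygous minus wild-type, 3 arrays each), with bars for the standard error and dotted lines at a 2-fold change. All points lie between -0.32 and 0.20, well inside the dotted lines, and 51 are above 0.

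Leaving out wild-type replicate 1 changed the size of this shift but not the calls. The median over the 74 genes was then 0.14, with 68 genes above 0 where 49.5% of all tested genes were. The large and the small subunit both had a median of 0.14. Unadjusted p in limma was under 0.05 for 3 of the 74 genes (Mrpl21, Mrpl28 and Mrpl35), beside 5.17% of all tested genes, and the lowest adjusted p was 0.880. Groups did not overlap for 33 genes with the heterozygotes higher, beside 11.8% of all tested genes, and for 2 genes with them lower, beside 10.4%. Leaving out wild-type replicate 2 or 3 instead brought the median to -0.00 or -0.01, with 34 and 36 genes above 0. Groups then did not overlap for 1 and 3 genes with the heterozygotes higher, beside 9.52% and 13.9% of all tested genes. With them lower there were 4 and 3, beside 9.69% and 10.6%. Wild-type replicate 1 was singled out because it was highest for most members, and the members moved together. The 33 genes that separated without it are therefore not separate evidence of a genotype difference.

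The subunits had nearly the same median. In the large subunit 35 of 49 genes were above 0, with a median of 0.036, and in the small subunit 15 of 24 were, with a median of 0.042. Splitting by symbol alone gave 33 of 47 and 18 of 27, with medians of 0.036 and 0.046 (0.138 and 0.148 without wild-type replicate 1). Proteins with bacterial counterparts had 33 of 44 genes above 0 (median 0.043) and mitochondrion-specific proteins 17 of 29 (median 0.017). Without wild-type replicate 1 these became 41 of 44 (median 0.154) and 26 of 29 (median 0.121). Within the large subunit these classes had medians of 0.042 (29 genes) and 0.012 (20 genes), and within the small subunit 0.046 (15 genes) and 0.028 (9 genes). These are descriptions of small shifts, and no test was made between the classes.

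Among the members with the smallest p above 0, Mrpl44, a large-subunit protein related to RNase III, was the single gene whose groups did not overlap in that direction, where 5.58% of all tested genes had that pattern. Its signal was 1549.4, 1450.0 and 1424.3 in wild-type and 1591.0, 1715.0 and 1603.1 in heterozygous samples. The highest wild-type and lowest heterozygous value thus lay close together, and the log2 difference was 0.15 ± 0.10 (SE; limma adjusted p = 0.917). Mrps22, a mitochondrion-specific protein of the small subunit, had 968.3, 846.1 and 804.1 against 873.1, 1057.1 and 1095.7. The lowest heterozygous sample fell among the wild-type ones, and the log2 difference was 0.20 ± 0.13. The others in this direction were Mrps21 (0.20), Mrpl21 (0.20), Mrpl28 (0.18), Mrpl55 (0.16), Mrps6 (0.16) and Mrpl4 (0.15), all as log2 differences. Without wild-type replicate 1, the differences of these 8 genes ran from 0.18 (Mrpl44) to 0.36 (Mrpl28). These values are of the brightest probe sets. Over all 6 arrays, the other tested probe sets of Mrpl28 had 0.00 and -0.15, and those of Mrpl44 had -0.00 and 0.15.

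On the other side, Mrpl33 and Mrpl57 had non-overlapping groups with the heterozygotes lower, a pattern of 5.07% of all tested genes. Mrpl33, a short bacterial-type protein of the large subunit, read 397.7, 349.5 and 383.5 in wild-type and 339.0, 296.2 and 302.2 in heterozygous samples. All 3 heterozygous values were below all wild-type ones, with a log2 difference of -0.26 ± 0.12 (SE; limma adjusted p = 0.899). The second Mrpl33 probe set, too dim to be tested, gave 38.4, 42.8 and 41.3 against 24.6, 23.3 and 38.1, again without overlap and in the same direction. Without wild-type replicate 1 the log2 difference of the brighter probe set was -0.22.

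Mrpl57, a mitochondrion-specific protein, read 1706.2, 1295.3 and 1321.8 in wild-type and 1278.5, 1281.1 and 1233.3 in heterozygous samples. Wild-type replicate 1 stood well above the other 5 arrays, which spanned a narrow range. Its dim second probe set gave 83.4, 76.7 and 81.5 against 84.6, 101.8 and 116.6, also without overlap but in the opposite direction. Mrpl54 had the lowest log2 difference of the family, -0.32 ± 0.17, from signals of 906.1, 571.1 and 629.9 against 578.3, 556.1 and 516.0. The wild-type mean there was raised mainly by replicate 1, without which the log2 difference was -0.12 for Mrpl54 and -0.05 for Mrpl57. The other members named below 0 were Mrps28 (-0.13), Mrps9 (-0.12), Mrps18b (-0.11), Mrpl20 (-0.10) and Mrpl51 (-0.10). Without wild-type replicate 1, Mrps28 and Mrps18b turned to 0.05 and 0.07, and Mrps9, Mrpl20 and Mrpl51 came to -0.02, -0.01 and -0.03.

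The Mrps18 paralogs and the members whose place departs from their symbol were read singly. The Mrps18 family has 3 paralogs that occupy different sites. Mrps18a, in the large subunit, had a log2 difference of 0.00; Mrps18b and Mrps18c, in the small subunit, had -0.11 and 0.04. Mrps30, also in the large subunit, had 0.14 and Mrps36 had 0.15. Without wild-type replicate 1 the 5 values were 0.12 (Mrps18a), 0.07 (Mrps18b), 0.15 (Mrps18c), 0.27 (Mrps30) and 0.18 (Mrps36).

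Probe sets of 1 gene did not always point the same way. Of 25 genes with several tested probe sets, 15 had log2 differences of both signs: Mrpl1, Mrpl3, Mrpl9, Mrpl13, Mrpl15, Mrpl28, Mrpl34, Mrpl41, Mrpl44, Mrpl50, Mrpl51, Mrpl52, Mrps9, Mrps23 and Mrps24. Over all 109 tested probe sets the median was 0.028, with 68 above 0 and 2 at an unadjusted p under 0.05, beside 5.68% of all probe sets. Groups did not overlap for 3 with the heterozygotes higher (5.27% of all probe sets) and for 4 with them lower (5.1%). Mrpl15, a bacterial-type protein of the large subunit, showed the widest spread, with 7 probe sets of which 5 were tested. Its brightest, at 1500.4, 1295.1 and 1161.9 against 1316.3, 1408.8 and 1351.7, had a log2 difference of 0.05 (0.15 without wild-type replicate 1). A dim one, at 147.0, 145.5 and 137.7 against 103.4, 93.8 and 80.2, had -0.56. Another, at 419.9, 521.6 and 519.1 against 535.8, 590.5 and 685.2, had 0.30, so the groups separated in opposite directions on these probe sets of the same gene. The dim one and the brightest carry the platform's suffix for probes that may also bind unrelated transcripts, as 12 of the 127 do.

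The members varied together across arrays, and the widest departure was in wild-type replicate 1. After each gene was centred on its own mean, the family's mean log2 signal was 0.19, -0.12 and -0.11 in wild-type replicates 1 to 3 and 0.03, -0.00 and 0.02 in the heterozygous ones. Wild-type samples therefore enclosed the heterozygous samples, with 1 above and 2 below. This rests on wild-type replicate 1, since wild-type replicates 2 and 3 were both below every heterozygous sample. Without replicate 1 the median log2 difference over the family was 0.14. The large subunit gave 0.19, -0.13, -0.10, 0.03, -0.01 and 0.02 over the same arrays and the small subunit 0.19, -0.12, -0.12, 0.02, -0.00 and 0.03, so the subunits moved alike.

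**Figure D2:**
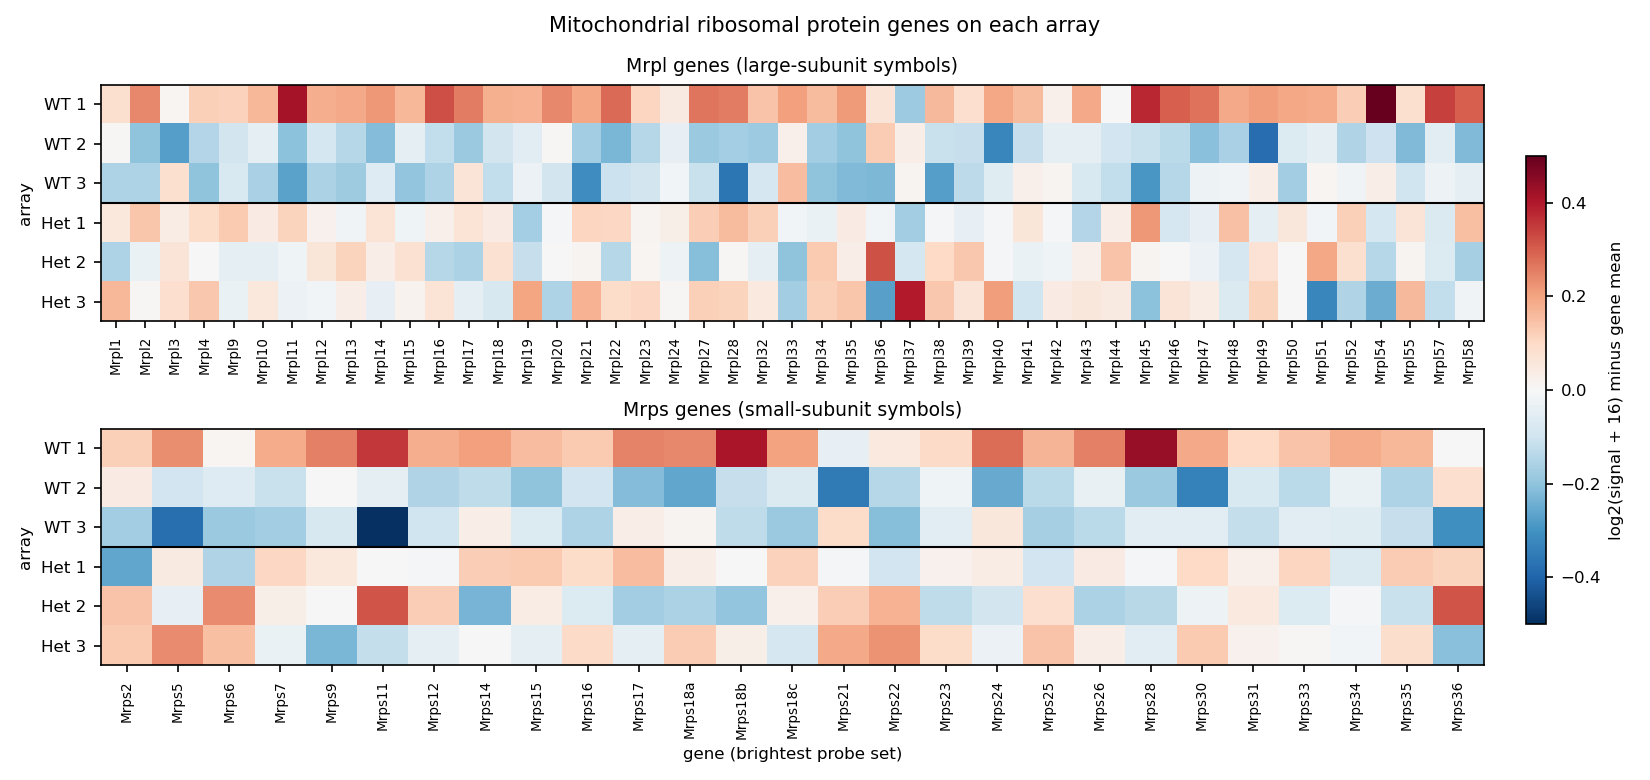
Colour gives the log2 signal of each mitoribosomal gene minus its own mean over the 6 arrays (rows, with wild-type above the line and heterozygous below). Panels are split by symbol, Mrpl and Mrps, so Mrps18a, Mrps30 and Mrps36 are drawn with the Mrps genes. The row of wild-type replicate 1 is high across nearly all genes of both panels, and the rows of wild-type replicates 2 and 3 are mostly low.

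Wild-type replicate 1 exceeded the mean of the other wild-type arrays in 73 of 74 genes, where it did so in 46.5% of all tested genes; Mrpl37 (412.6 against 481.6 and 475.8) was the exception. It exceeded both of them in 69 genes, beside 29.8% of all tested genes. The median excess was 0.30 on the log2 scale for members and -0.02 for all tested genes. All 24 small-subunit and 48 of 49 large-subunit genes were on this side. The lowest of the 6 values was in wild-type replicate 2 for 28 genes and in replicate 3 for 29, beside 1644 and 1281 of all 8243 tested genes. The highest was in heterozygous replicate 3 for 11 genes (14.9%), replicate 2 for 7 (9.46%) and replicate 1 for 1 (1.35%). Over all tested genes these shares were 20.8%, 10.3% and 13.9%.

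**Figure D3:**
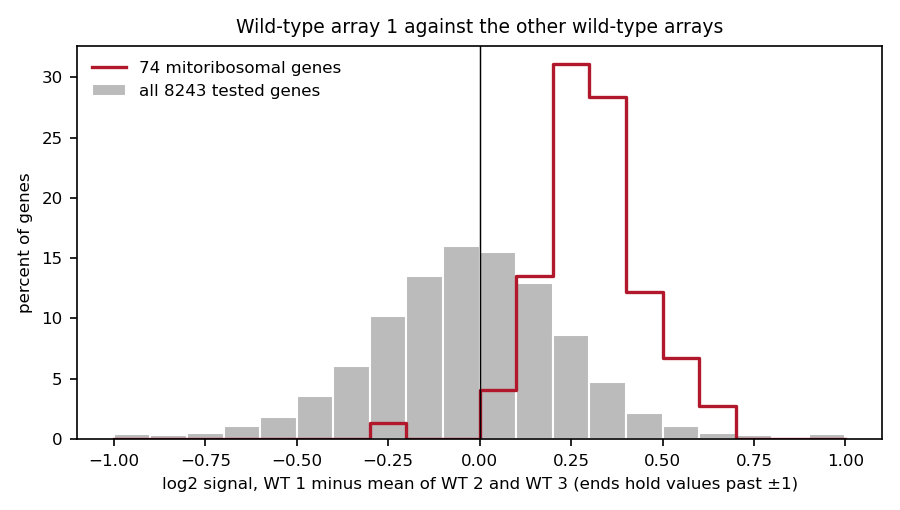
Percent of genes (vertical axis) by the log2 signal of wild-type replicate 1 minus the mean of wild-type replicates 2 and 3 (horizontal axis), for the mitoribosomal genes and for all tested genes. The 74 members are shifted to the right, with a median of 0.30, while all tested genes centre near 0, with a median of -0.02.

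The excess was also present under another scaling and at each brightness that held members. Quantile normalization, tried after the pattern had been seen, left wild-type replicate 1 highest in 55 of 74 genes, with a median excess of 0.29. When all tested genes were put into 5 equal classes by mean signal, the median excess of wild-type replicate 1 ran from -0.08 in the dimmest to 0.03 in the brightest. Members in the 4 upper classes had medians of 0.16, 0.33, 0.31 and 0.24 (3, 13, 44 and 14 genes). Over the 109 tested probe sets it was above the other wild-type arrays in 98 (89.9%). It was weaker on the 35 probe sets that were not a gene's brightest, at 25 of 35 and a median of 0.15.

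Members differed in how far they took part. Mrpl11, at the base of the stalk where translation factors bind, read 1139.0, 735.4 and 703.2 in wild-type and 920.1, 838.0 and 833.8 in heterozygous samples, an excess of 0.65 in wild-type replicate 1. Mrps11, on the platform of the small subunit, read 457.8, 343.2 and 245.7 against 354.6, 445.7 and 325.0, an excess of 0.63 and the largest spread within a genotype (SD 0.34 on the log2 scale). Next in spread were Mrpl45 (SD 0.29; excess 0.58), Mrpl11 (SD 0.27), Mrpl54 (SD 0.25; excess 0.58) and Mrpl36 (SD 0.25).

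The steadiest members were Mrpl42 and Mrpl24, both of the large subunit. Mrpl42 read 2552.3, 2426.7 and 2529.4 against 2496.1, 2469.2 and 2581.3, and Mrpl24 read 2099.4, 1973.1 and 2013.3 against 2074.7, 1999.3 and 2041.4. Their SDs within a genotype were 0.036 and 0.037, and their excesses in wild-type replicate 1 were 0.04 and 0.07. Mrpl44 (0.061), Mrps31 (0.083) and Mrpl33 (0.096) came next by SD.

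Other gene lists were read on the same arrays. Nuclear-encoded respiratory chain subunits (75 genes), whose complexes receive the products of these ribosomes, had means of 0.12, -0.06, -0.07, 0.01, -0.01 and 0.01 over the 6 arrays in the same order, with wild-type replicate 1 highest in 51 genes (68.0%) and a median excess of 0.18. Genes whose symbol begins with Rpl or Rps and a number (46 genes) were taken as cytosolic ribosomal proteins. This symbol rule can also take in genes of similar name that are not ribosomal proteins. The 46 genes had 0.09, -0.01, -0.05, 0.02, -0.04 and -0.02, with 14 genes highest in wild-type replicate 1 (30.4%) and a median excess of 0.07. Median genotype differences of the respiratory chain list and this list were 0.021 and 0.017, and 0.08 and 0.037 without wild-type replicate 1.

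Proliferation genes, 11 cell-cycle genes chosen after the data had been seen, had means of 0.26, -0.42, -0.32, 0.04, 0.18 and 0.27. Wild-type replicates 2 and 3 were thus low for these too, and the heterozygous samples were not. Their median excess in wild-type replicate 1 was 0.67, beside 0.30 for the mitoribosomal genes. Colonocyte markers had 0.06, 0.11, -0.26, -0.22, 0.14 and 0.18, an order unlike that of the mitoribosomal genes, since wild-type replicate 2 was as high as replicate 1. Leukocyte markers had -0.29, -0.35, 0.14, 0.06, 0.18 and 0.25, lowest in wild-type replicates 1 and 2. Ileal enterocyte markers had 0.52, 1.51, -1.72, -1.01, 1.13 and -0.44, the widest spread of the lists read, highest in wild-type replicate 2 and lowest in replicate 3. As a sign of RNA quality, the ratio of 3′ to 5′ probe signal was 0.655 to 0.727 for Gapdh, with 0.700 in wild-type replicate 1, and 1.437 to 1.605 for Actb, where that array had the lowest value. The part of proliferating cells, cell makeup and RNA quality in the mitoribosomal pattern was not tested.

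**Figure D4:**
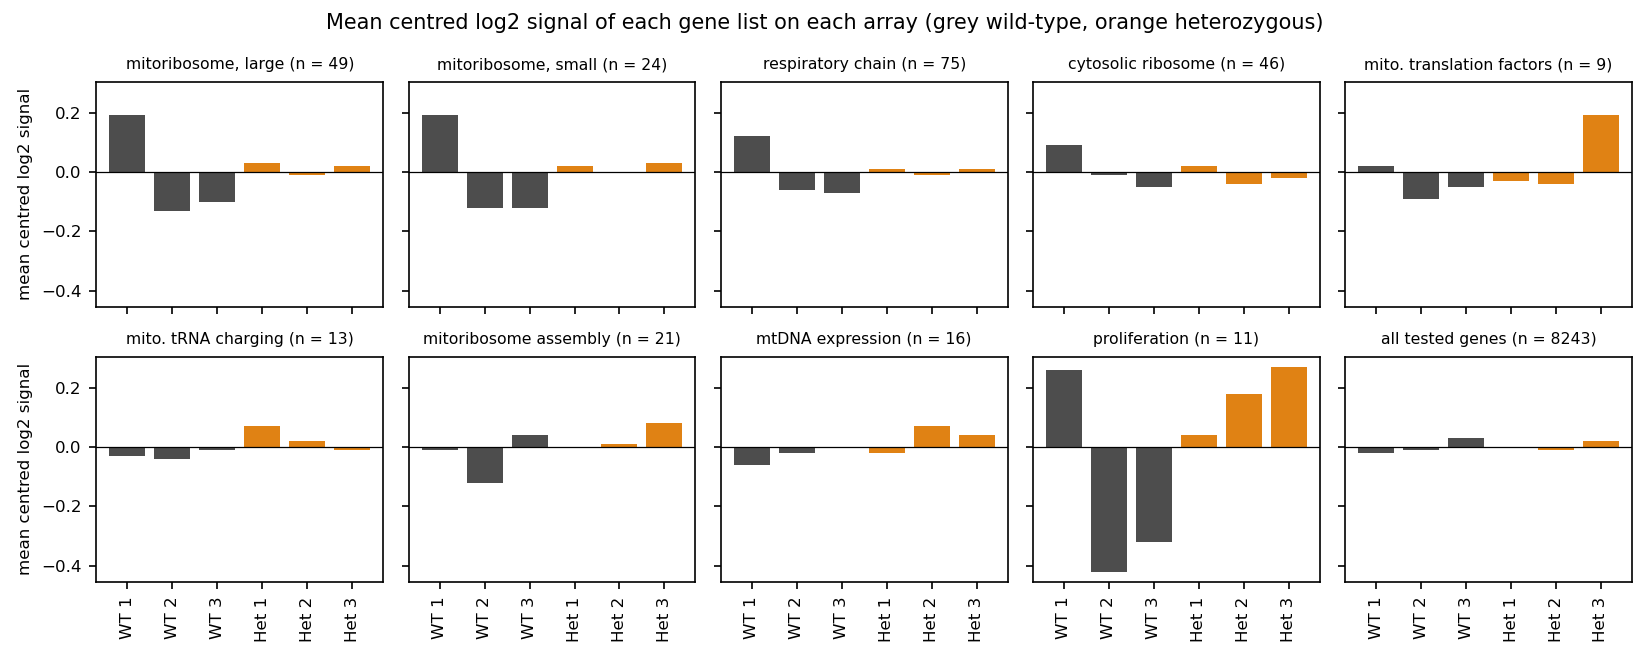
Each panel gives, for 1 gene list, the mean log2 signal after centring each gene on its own mean, on each of the 6 arrays (grey, wild-type; orange, heterozygous). The panels of the large and the small mitoribosomal subunit are both high in wild-type replicate 1 (0.19 in each). Wild-type replicates 2 and 3 are low (-0.13 and -0.10 for the large subunit, -0.12 and -0.12 for the small), with the heterozygous arrays between.

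Because the members moved together across arrays, their promoters were searched for 3 motifs known from nuclear genes of mitochondria: NRF-1 (GCGCA, any 1 base, then GCGC), GABP, also called NRF-2 (CCGGAAGT), and YY1 (AAGATGGC), each on both strands. RefSeq windows from 250 bases before to 50 after the start, on GRCm38.p6, matched 65 of the 74 genes; Mrpl4, Mrpl13, Mrpl15, Mrpl19, Mrpl38, Mrpl54, Mrps28, Mrps34 and Mrps35 were not matched. NRF-1 was in 12 of the 65 windows (18.5%), beside 7.17% of all 17491 windows in the table. GABP was in 11 (16.9%, beside 5.69%) and YY1 in 11 (16.9%, beside 3.57%). At least 1 motif was in 32 (49.2%, beside 15.1%). The comparison windows were not limited to genes tested here or matched for base composition, so the higher shares may not be particular to this family. A match is a description of letters, not of binding.

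The windows below show how these motifs sit, in lower case with the matches in capitals, read 5′ to 3′ on the gene's own strand. Mrpl32, chr13:14612988-14613287 (minus strand), holds a YY1 match and an NRF-1 match that reads as NRF-1 on both strands. Mrps26, chr2:130563507-130563806 (plus strand), holds a GABP match followed by overlapping NRF-1 matches shown as 1 run. Mrpl12, chr11:120484387-120484686 (plus strand), the member with the highest signal, holds 1 NRF-1 match. Mrps11, chr7:78782881-78783180 (plus strand), and Mrps12, chr7:28741772-28742071 (minus strand), hold 1 YY1 match each and lie beside genes that run the other way.
Mrpl32: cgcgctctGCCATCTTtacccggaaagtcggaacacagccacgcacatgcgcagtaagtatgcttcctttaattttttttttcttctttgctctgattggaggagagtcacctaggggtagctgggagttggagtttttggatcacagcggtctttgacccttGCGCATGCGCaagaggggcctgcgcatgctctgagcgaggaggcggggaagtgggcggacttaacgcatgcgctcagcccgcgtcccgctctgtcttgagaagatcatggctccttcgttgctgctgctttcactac
Mrps26: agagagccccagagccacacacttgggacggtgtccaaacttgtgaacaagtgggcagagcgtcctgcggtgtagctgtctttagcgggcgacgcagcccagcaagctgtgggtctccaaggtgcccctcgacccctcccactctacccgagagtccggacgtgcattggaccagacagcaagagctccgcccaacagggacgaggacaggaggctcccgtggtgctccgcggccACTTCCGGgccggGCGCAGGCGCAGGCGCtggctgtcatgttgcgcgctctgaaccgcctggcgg
Mrpl12: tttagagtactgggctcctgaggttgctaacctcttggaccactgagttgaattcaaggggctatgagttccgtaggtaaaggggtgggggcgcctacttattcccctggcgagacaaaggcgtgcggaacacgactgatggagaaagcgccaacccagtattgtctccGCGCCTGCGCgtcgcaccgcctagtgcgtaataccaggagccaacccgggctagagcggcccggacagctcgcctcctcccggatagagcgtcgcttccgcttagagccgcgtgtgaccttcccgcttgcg
Mrps11: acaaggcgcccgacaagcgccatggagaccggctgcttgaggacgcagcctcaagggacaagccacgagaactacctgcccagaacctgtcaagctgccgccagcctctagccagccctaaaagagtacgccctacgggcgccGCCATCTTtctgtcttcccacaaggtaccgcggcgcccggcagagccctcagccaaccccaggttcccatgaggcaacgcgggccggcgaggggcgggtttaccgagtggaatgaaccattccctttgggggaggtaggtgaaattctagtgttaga
Mrps12: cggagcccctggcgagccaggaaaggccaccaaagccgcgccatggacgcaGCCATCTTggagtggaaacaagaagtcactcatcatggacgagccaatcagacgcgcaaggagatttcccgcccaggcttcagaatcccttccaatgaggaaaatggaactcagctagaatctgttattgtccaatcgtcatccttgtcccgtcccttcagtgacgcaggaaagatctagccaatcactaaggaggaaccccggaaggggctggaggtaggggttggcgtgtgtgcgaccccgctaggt

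Members with and without a motif had similar values on the arrays. The median excess in wild-type replicate 1 was 0.30 with and 0.29 without NRF-1, 0.25 and 0.31 for GABP, and 0.33 and 0.29 for YY1. Of the 65 genes, 19 had a protein-coding neighbour that ran the other way on the opposite strand and whose own window overlapped theirs. Of 10 such neighbours that were tested, 9 were higher in wild-type replicate 1 than in the mean of the other wild-type arrays, as were 46.5% of all tested genes. Of these 10, 2 are members themselves (Mrps11 and Mrpl46). Of the other 8, 7 were higher. Among them is Ndufb5, which is on the respiratory chain list, where 92.0% of genes were higher on that array. The neighbours are thus not independent of the lists read above.

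Mrps11 and Mrpl46, which encode proteins of different subunits, start 42 bases apart and run away from each other. Mrpl46 read 1165.7, 859.1 and 854.2 in wild-type and 890.0, 943.7 and 989.3 in heterozygous samples, with an excess of 0.44 in wild-type replicate 1, beside 0.63 for Mrps11. Mrps12, a protein of the decoding centre, starts 147 bases from Sars2, the mitochondrial seryl-tRNA synthetase. Sars2 read 102.1, 131.9 and 138.1 against 109.0, 99.7 and 121.7, so wild-type replicate 1 was lowest of its genotype (-0.35), whereas the excess of Mrps12 was 0.31. In the heterozygous samples Mrps11 was lowest in replicate 3 and Mrpl46 highest there, so that pair was alike in wild-type replicate 1 and not across all arrays.

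The genes that work with this ribosome showed no called difference either. Proteins of this ribosome or bound to it, under other names (5 tested genes of 8 listed), had 3 above 0 and a median log2 difference of 0.167. Dap3 had 0.17, Chchd1 0.21 and Ptcd3 0.36, while Gadd45gip1 had -0.06 and Oxa1l -0.15. The median was 0.22 without wild-type replicate 1. All 5 were higher in wild-type replicate 1 than in the other wild-type arrays, with a median excess of 0.31. Assembly factors (21 of 34) had 15 above 0, a median of 0.061 and an excess of 0.00; Mettl17 had 0.30, Tfb1m, a methyltransferase of the small-subunit rRNA, 0.28, and Dhx30, an RNA helicase, 0.19. Translation factors (9 of 17) had 7 above 0, a median of 0.107 and an excess of 0.03; without heterozygous replicate 3 the median was 0.017 and Gfm1, an elongation factor at 0.16 over all arrays, was at 0.00. Others on that list were Pdf, the deformylase, at 0.13, and Mtif2, an initiation factor, at 0.11. Genes that transcribe mitochondrial DNA or regulate its expression (16 of 19) had 12 above 0 and a median of 0.062 (0.04 without wild-type replicate 1), with Ppargc1a at 0.29, Tefm at 0.22 and Esrra at -0.25.

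The step that uses one-carbon units held no called difference. Mtfmt, the formyltransferase, read 228.0, 236.6 and 246.6 in wild-type and 235.3, 241.1 and 250.3 in heterozygous samples. These ranges overlapped, with a log2 difference of 0.03 ± 0.12 (SE; limma adjusted p = 0.988). Its list, which also holds the mitochondrial tRNA synthetases (13 of 24 tested), had 8 above 0 and a median of 0.087 (0.022 without wild-type replicate 1), with Gtpbp3, a tRNA-modifying GTPase, at 0.37, Hars2 at 0.25 and Iars2 at -0.27.

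Of the mitochondrial one-carbon genes, 4 of 12 were tested, with 1 above 0 and a median of -0.027 (-0.006 without wild-type replicate 1). Shmt2, which makes mitochondrial methylenetetrahydrofolate from serine, read 322.1, 198.7 and 239.9 against 218.5, 280.1 and 313.0. The groups overlapped and the log2 difference was 0.10 ± 0.20. For Shmt2 it was 0.28 ± 0.19 without wild-type replicate 1, and its sign changed in 3 other settings. Mthfd2, the mitochondrial dehydrogenase and cyclohydrolase, read 173.8, 142.1 and 197.7 against 182.1, 144.8 and 164.9, also overlapping, with -0.05. Gcsh and Dld of the glycine cleavage system had -0.07 and -0.00. Mars2, Mthfd1l and Slc25a32 were not tested here.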

How the data were processed

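RNA from 6 samples was amplified, biotin-labelled and hybridised to 1 Affymetrix mouse array each, per the labels. The deposited values are linear signal intensity per probe set, made by the authors with GCOS per the submitters' processing notes (version not given in the sources used here). Per array, the 2% trimmed mean was 499.4 to 499.9 and log2 medians differed by 0.09, so no further scaling was applied. No detection calls were used here.

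Values were taken as log2(signal + 16), so a fold change is on that scale and understates change in dim probe sets. Control probe sets (64) and those below the 40th percentile of mean signal were left out. The genotypes were compared over 13576 probe sets in R 4.3.3 by limma 3.58.1, whose moderated variances followed a trend on signal; two-sided p-values were adjusted by Benjamini-Hochberg and called under 0.05, and the procedure was checked on simulated data. With 3 against 3 arrays a two-sided exact permutation test cannot go below 0.1. Of 22626 non-control probe sets, 20380 had 1 symbol, 691 several and 1555 none. A gene is its brightest probe set (8243 genes). No test was made over lists.

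Genes named are those with an adjusted p under 0.05, the 8 with smallest p in each direction, those whose probe sets differ in sign, the 5 most and 5 least variable, the Mrps18 paralogs, Mrps30 and Mrps36, those nearest the filter and up to 3 of each related list. Members of the promoter and array-pattern paragraphs outside this rule were chosen after their values were seen. The members and lists were chosen with earlier results of these data known. Alternatives were other pseudocounts, filters, normalization, variance settings, probe set summaries, a replicate block and leaving out each array.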

Additional observations from a re-analysis of the deposited data

How the results depend on the processing

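No mitoribosomal probe set reached an adjusted p of 0.05 in limma under any of the settings fitted on probe sets. The median over the 74 genes stayed between 0.023 and 0.038 under other normalization, pseudocounts, filters, variance settings, array weights and the mean of probe sets. Leaving out 1 array at a time moved it from -0.006 to 0.142 (highest without wild-type replicate 1). The difference between the medians of the subunits ran from -0.038 to 0.016, so its sign carries no weight. Over all probe sets, the number at an adjusted p of 0.05 was 0 as reported, 8 with robust variances, 4 with array weights and 4 genes with the mean of probe sets; without 1 array it was 0 to 38, reaching 38 when heterozygous replicate 1 was dropped and 2 when wild-type replicate 3 was. The number at an unadjusted p under 0.05 was 771 as reported, 1395 with no filter and 444 with a filter at the 60th percentile, where other numbers of probe sets were tested; without 1 array it was 443 to 1038. The cause of the other changes was not tested. Mthfd1 had -0.89 (adjusted p = 0.0401) with the mean of its probe sets. The median for tRNA charging and formylation, 0.087 as reported, was 0.022 without wild-type replicate 1 and 0.028 to 0.049 in 5 other settings; that for translation factors, 0.107, fell to 0.017 without heterozygous replicate 3, and 24 named genes changed sign in at least 1 setting.

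With the replicate number as a block, the median over the 74 genes was 0.037, 51 genes were above 0 and 0 probe sets of the family were called. The numbers share no stated litter or day, and deviations of same-numbered samples correlated at -0.12, 0.5 and 0.05. The same-numbered sample was the best match for replicate 2 but not for replicates 1 and 3. Whether the numbers pair the samples is therefore not known, and the main comparison was unpaired. With 3 arrays per group the precision is low: the unadjusted 95% intervals of the members had a median half-width of 0.31 (log2), and Mthfd1 at -0.80 did not pass the adjusted threshold.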
